A study of Homo sapiens with 18 samples.

Results

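Isocitrate dehydrogenases turn isocitrate into 2-oxoglutarate, and the genes described here are the 5 that encode them (IDH1, IDH2, IDH3A, IDH3B and IDH3G) together with D2HGDH and ADHFE1, whose enzymes act on D-2-hydroxyglutarate. Every probe set annotated to 1 of these 7 genes by its current symbol or an older alias was taken, which gave 7 of the 19775 genes named by a probe set of 1 symbol and 15 of the 54675 probe sets on the array, and each was kept apart because probe sets of 1 gene can disagree. No probe set was found through an older alias alone, and none of the 15 was shared with another gene. All 15 passed the filter on dim probe sets, among 29070 tested.

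The samples were 18 one-colour Affymetrix arrays of total RNA from HCT116, an established human colorectal carcinoma line, as 9 clones with 2 biological replicates each, grown for 6 days. Clones 2C11 and 2H1 carried IDH1 R132H and clone 3A4 carried IDH1 R132C. Clones 8G12 and 17H5 carried IDH2 R140Q, and clones 47C2 and 45G3 carried IDH2 R172K. Clone 16F8 had been targeted with IDH1 R132C but, per the labels, does not express the mutant allele and is wild-type in its mRNA, and the parental line is untargeted. Every targeted clone is heterozygous (/+) in the labels, so each of the 7 mutant clones also keeps a wild-type allele, and a probe set measures the transcripts of both alleles together. Each genotype rests on 1 or 2 clones, R132C on 3A4 alone, and the 2 arrays of a clone give the spread of that clone, not of its genotype. Over all probe sets, Pearson's r was 0.986 to 0.994 within clones and 0.952 to 0.989 between them. Of 10 colorectal epithelial markers 6 were above the filter (EPCAM, KRT8, KRT18, KRT19, CDH1 and CDX2), whereas CDX1, VIL1, CDH17 and LGALS4 had median signals of 1.95 to 4.90.

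IDH1 works in the cytosol and peroxisomes and IDH2 in mitochondria, both as homodimers that make NADPH, while IDH3 is the NAD-dependent enzyme of the citrate cycle, built from a catalytic alpha subunit (IDH3A) and the beta and gamma subunits IDH3B and IDH3G. The amino acid changes studied here lie in the active site and give IDH1 or IDH2 the ability to reduce 2-oxoglutarate to D-2-hydroxyglutarate, which accumulates in tumours with such mutations, gliomas and acute myeloid leukaemias among them. D2HGDH oxidises D-2-hydroxyglutarate back to 2-oxoglutarate, and ADHFE1, a transhydrogenase that oxidises gamma-hydroxybutyrate, forms it as a by-product.

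The probe sets of IDH1, of IDH2 and of IDH3B moved together among the clones (r of 0.709 to 0.986 within each gene), and the promoter windows of IDH1 and IDH3B are given for that reason, while the table's window for IDH2 starts inside the annotated gene and is not used here. The windows hold 250 bases before and 50 bases after the annotated start of the gene, on the gene's own strand, from RefSeq on GRCh38.p14. Capitals mark the GC box GGGCGG, searched on both strands.
IDH1, chr2:208255022-208255321, minus strand: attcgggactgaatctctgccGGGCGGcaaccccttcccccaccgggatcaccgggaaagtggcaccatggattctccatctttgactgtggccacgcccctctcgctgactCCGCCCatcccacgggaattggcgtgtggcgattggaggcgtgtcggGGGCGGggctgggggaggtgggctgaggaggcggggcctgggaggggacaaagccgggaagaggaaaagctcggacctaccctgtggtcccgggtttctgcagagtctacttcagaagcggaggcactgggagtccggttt
IDH3B, chr20:2664167-2664466, minus strand: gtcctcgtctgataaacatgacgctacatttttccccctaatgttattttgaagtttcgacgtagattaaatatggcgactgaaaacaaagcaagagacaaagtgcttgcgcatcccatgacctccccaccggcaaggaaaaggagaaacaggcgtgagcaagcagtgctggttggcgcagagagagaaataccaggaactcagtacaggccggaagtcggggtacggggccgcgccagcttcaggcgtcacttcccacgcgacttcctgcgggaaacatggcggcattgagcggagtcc
The IDH1 window held 3 GC boxes and the IDH3B window 0, whereas 44.95% of all 35116 promoter windows of the same table held at least 1. The E-box CAGGTG, the sequence that ZEB1 is known to bind, was searched in the same way because the study asked about the epithelial-mesenchymal transition. It occurred 0 times in either window, so no match overlapped a GC box, and it was present in 20.59% of all windows. The IDH1 window is shared over 261 of its 300 bases with the window of IDH1-AS1, a non-coding gene that runs the other way from the same place.

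IDH1 mRNA was abundant in all 9 clones, highest in 2H1 and lowest in 16F8, on each of its 3 probe sets. On the log2 scale 2H1 lay 0.97 ± 0.12 above 16F8 on 201193_at and on 1555037_a_at (SE, adjusted p = 3.20e-05 and 3.35e-05, limma). The third probe set, 242956_at, read below the array's median on both arrays of 16F8 (10.5 and 11, where the medians were 12.7 and 12.5), so 16F8 has no level above the filter there. Its differences from 16F8 therefore depend on the offset of 2.2 added before log2: that of 2H1 was 1.78 ± 0.24 (adjusted p = 8.91e-05) and became 0.80 with an offset of 32. On the 2 bright probe sets the largest gap in IDH1 mRNA was therefore between a clone that expresses R132H and a clone that was targeted but does not express its mutant allele. In RNA from whole cultures, fewer cells of a kind and less RNA per cell cannot be told apart.

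By 201193_at, clone 2C11 had IDH1 signals of 1722.7 and 1971.9, clone 2H1 of 2284.4 and 2101.6, and clone 3A4 of 1492.3 and 1628.5. Among IDH2-mutant clones, 8G12 had 1468.3 and 1343.7, 17H5 had 1466.1 and 1463.1, 47C2 had 1382.4 and 1286.2, and 45G3 had 1538.0 and 1256.0. Clone 16F8 had 1036.1 and 1212.5, and parental had 1693.5 and 2008.4. Both arrays of 2H1 were above all 16 others, and both arrays of 16F8 were below all 16 others. The arrays of 2C11 and parental overlapped, and every array of the 4 IDH2-mutant clones lay below every array of 2C11, 2H1 and parental. In this order (2H1, parental, 2C11, 3A4, 17H5, 8G12, 45G3, 47C2, 16F8) 0 of the 8 steps between neighbours exceeded the least difference that 2 clones can show, 0.25 on the log2 scale at an unadjusted p of 0.05, so neighbours could not be separated on this probe set although the ends could.

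The probe set 1555037_a_at followed the same order apart from 2 pairs of neighbours (2C11 with parental, and 45G3 with 8G12), with arrays from 1027.6 in 16F8 to 2138.9 in 2H1, and its clone means correlated with those of 201193_at at r = 0.986 (9 clones). On 1555037_a_at 2 steps between neighbours exceeded the least difference of 0.25, the largest being 0.31 from parental down to 3A4. The probe set 242956_at was far dimmer. Its signals were 33.2 and 30.6 in 2C11, 39.0 and 45.7 in 2H1, 22.5 and 31.2 in 3A4, and 33.9 and 28.4 in 17H5. The other clones were dimmer on it, with 14.1 and 20.1 in 8G12, 20.3 and 17.0 in 47C2, 19.1 and 17.2 in 45G3, 10.5 and 11 in 16F8, and 24.5 and 17.8 in parental. Clone 17H5, an IDH2 R140Q clone, therefore stood with the IDH1-mutant clones on 242956_at but with the other IDH2-mutant clones on 201193_at and 1555037_a_at. The clone means of 242956_at correlated with those of the 2 bright probe sets at r = 0.843 and 0.819 (9 clones). The probe sets of a gene share the same RNA and arrays, and the deviations of replicate arrays of 201193_at and 1555037_a_at from their clone means correlated at 0.936.

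**Figure D1:**
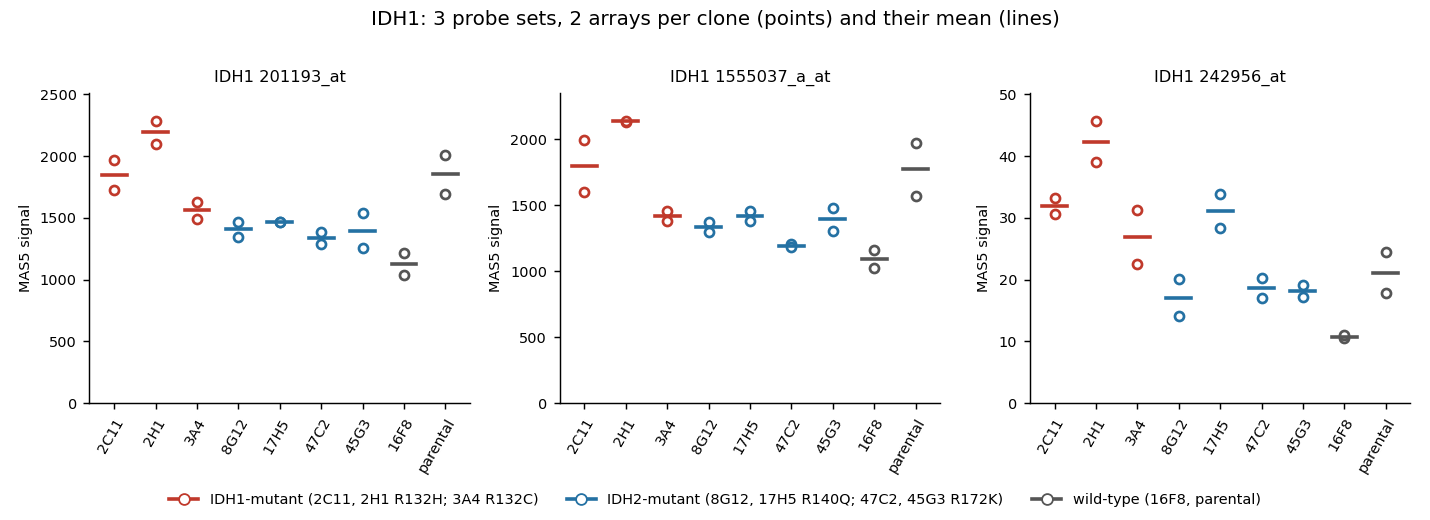
MAS5 signal of the 3 IDH1 probe sets in the 9 clones, with 1 panel per probe set and a linear axis from 0. Points are single arrays (2 per clone), lines are clone means, and colours give the mutated gene. 2H1 is highest and 16F8 lowest in each panel, and 17H5 is high in the panel of 242956_at.

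Against the parental line, IDH1 fell in 4 clones on both bright probe sets. By 201193_at the log2 differences were -0.39 ± 0.12 in 8G12, -0.47 ± 0.12 in 47C2, -0.41 ± 0.12 in 45G3 and -0.72 ± 0.12 in 16F8 (SE, adjusted p = 0.0365, 0.00954, 0.0195 and 0.000527). Clone 16F8 does not express its targeted allele per the labels, and the part of this in its low IDH1 signal was not tested. In 17H5 the difference was -0.33 ± 0.12 (adjusted p = 0.0953). The dim probe set gave 2 calls against parental, higher in 2H1 (0.94 ± 0.24) and lower in 16F8 (-0.84 ± 0.24). The lower signal of 16F8 on the bright probe sets was called under every alternative, but on 242956_at its call was lost under 7 of 26 alternatives, either 16F8 array left out among them, and the estimate was -0.31 with an offset of 32. The calls of 8G12, 47C2 and 45G3 on the bright probe sets were all lost without the second parental array, as was that of 2H1 on 242956_at. That of 8G12 was also lost without either of its own arrays (7 of 28 alternatives on 201193_at and 6 of 27 on 1555037_a_at), and that of 45G3 under 3 of 28 and 14 of 27.

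Against 16F8, all 3 IDH1 probe sets were called higher in each of the 3 IDH1-mutant clones, on 242956_at with the dim signal of 16F8 given above. By 201193_at 2C11 lay 0.72 ± 0.12 above it, 2H1 0.97 ± 0.12 and 3A4 0.48 ± 0.12 (adjusted p = 0.00291, 3.20e-05 and 0.00839). In the 4 IDH2-mutant clones 201193_at was 0.25 to 0.39 above 16F8, with 0 of them past the threshold. 242956_at was also higher in 17H5, by 1.36 ± 0.24 (adjusted p = 0.00272). The calls of 2H1 were kept under every alternative. Those of 2C11 on the bright probe sets were lost without the second array of 2C11 or the first of 16F8. Those of 3A4 on the bright probe sets were lost without its second array, without the first of 16F8 or without the arrays of high poly-A signal (4 of 28 alternatives on 201193_at and 7 of 27 on 1555037_a_at), while its call on 242956_at held under all 26. The choice of wild-type clone thus turned the sign of the estimates for 3A4 and the IDH2-mutant clones, which lay below parental and above 16F8 on 201193_at.

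Epithelial markers moved in the same comparisons, and in others. All 6 that passed the filter were called in 2H1 against 16F8, beside 14.6% of all genes, with KRT8, KRT18 and KRT19 higher (0.56, 0.45 and 0.39 on the log2 scale) and EPCAM, CDH1 and CDX2 lower (-0.55, -1.10 and -0.76). In 3A4 against 16F8 5 of the 6 were called in the same directions, CDX2 being the other, beside 24.8% of all genes, and in 2C11 0 were called, with 2 at an unadjusted p under 0.05 (limma). Between IDH1-mutant and wild-type clones 5 of the 6 had an unadjusted p under 0.05 and 0 passed (limma). The part of these shifts in the IDH1 differences was not tested.

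IDH1-AS1 had 1 probe set, with signals from 10.4 to 21.8 over the 18 arrays. It passed 0 of the 15 comparisons of a clone with parental or 16F8 (limma), and its clone means correlated with those of IDH1 201193_at at r = 0.404 (9 clones). Of the 3 nearest tested genes on either side of IDH1, the microtubule gene MAP2 was lower than in parental in all 8 clones (-0.64 in 16F8 to -2.54 in 2H1 on the log2 scale). The Wnt receptor gene FZD5 was higher in 5 clones (0.32 in 47C2 to 0.65 in 2C11), PLEKHM3 was lower in 4 (2H1, 3A4, 47C2 and 45G3), and CCNYL1 was lower in 3A4. Of the tests of all 12541 genes against parental, 12.2% were called higher and 11.5% lower. Against 16F8 the calls were CCNYL1 and MAP2 in 2H1, CCNYL1 and FZD5 in 3A4, and MAP2 in 47C2, all lower. MAP2 was lowest in 2H1, the clone in which IDH1 was highest, whereas IDH1-AS1 was highest there. Over the 9 clone means the other 5 neighbours correlated with IDH1 201193_at at r = -0.34 (FZD5 and MAP2) to 0.17 (PLEKHM3).

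IDH2 mRNA was highest in the 2 R140Q clones, next in the 2 R172K clones and lowest in clones with wild-type IDH2, on both of its probe sets. By 210046_s_at, 8G12 had signals of 242.4 and 305.1, 17H5 of 224.9 and 228.6, 47C2 of 166.1 and 165.4, and 45G3 of 176.8 and 139.3. Among IDH1-mutant clones, 2C11 had 137.2 and 118.9, 2H1 had 141.3 and 90.4, and 3A4 had 132.3 and 106.9. Clone 16F8 had 123.8 and 120.7, and parental had 152.6 and 101.7. All 4 R140Q arrays were above the other 14, and of the R172K arrays only the second of 45G3 fell within the range of the clones with wild-type IDH2. The mean of clone means was 206 ± 54.6 in the 4 IDH2-mutant clones, 121 ± 6.25 in the 3 IDH1-mutant clones and 125 ± 3.46 in the 2 wild-type clones (SD between clones).

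By 210045_at, 8G12 had signals of 192.7 and 176.8, 17H5 of 182.6 and 169.0, 47C2 of 140.5 and 143.7, and 45G3 of 170.1 and 104.0. Those of the IDH1-mutant clones were 106.1 and 101.8 for 2C11, 85.6 and 101.1 for 2H1, and 109.3 and 130.4 for 3A4. The 2 arrays of 16F8 read 124.5 and 132.7, and the 2 of parental 60.1 and 68.3. Of the IDH2-mutant arrays only the second of 45G3 fell within the range of the clones with wild-type IDH2. The first 4 places were the same as on 210046_s_at (8G12, 17H5, 47C2, 45G3), and the clone means of the 2 probe sets correlated at r = 0.782 (9 clones). They disagreed on the parental line: on 210045_at parental was the lowest clone, with both arrays below all 16 others, while on 210046_s_at it lay within the range of the clones with wild-type IDH2.

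**Figure D2:**
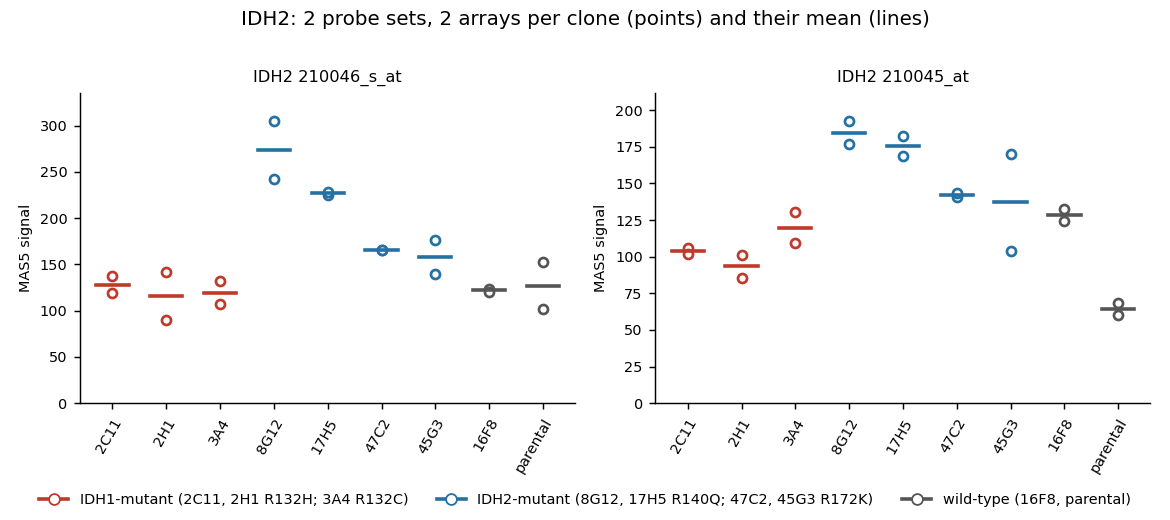
MAS5 signal of the 2 IDH2 probe sets in the 9 clones, with a linear axis from 0. Points are single arrays (2 per clone), lines are clone means, and colours give the mutated gene. 8G12 and 17H5 are highest in both panels, and parental is the lowest clone in the panel of 210045_at only.

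That disagreement decided the calls. By 210045_at IDH2 was higher than in parental in all 8 clones, by 0.52 ± 0.18 in 2H1 to 1.49 ± 0.18 in 8G12 on the log2 scale, and by 0.98 ± 0.18 in 16F8, which carries no IDH2 mutation (adjusted p = 0.0431, 3.70e-05 and 0.00134). By 210046_s_at it was higher in the R140Q clones alone, by 1.11 ± 0.21 in 8G12 and 0.85 ± 0.21 in 17H5 (adjusted p = 0.00173 and 0.0178), while 47C2, 45G3 and 16F8 were at 0.41, 0.33 and -0.03. Of the calls on 210045_at, that of 2H1 was lost under 15 of 27 alternatives, either array of 2H1 or of parental left out among them, and that of 2C11 without either of its own arrays or the first parental array. Against 16F8, 210046_s_at was again higher in 8G12 (1.14 ± 0.21, adjusted p = 0.0151) and 17H5 (0.88 ± 0.21, adjusted p = 0.0187). By 210045_at the same 2 clones were 0.51 ± 0.18 and 0.44 ± 0.18 above 16F8 (adjusted p = 0.502 and 0.166). Higher IDH2 mRNA in the R140Q clones than in both wild-type clones was thus called on 210046_s_at, and on 210045_at it was called against parental. The call of 17H5 against parental on 210046_s_at was lost without either of its arrays or the second parental array. The call of 8G12 against 16F8 on 210046_s_at was lost without either array of 16F8, without the second array of 8G12, without the arrays of high poly-A signal, and with the variance prior untrended, and that of 17H5 was lost without any 1 of the 4 arrays of 17H5 and 16F8.

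Of the 3 nearest tested genes on either side of IDH2, 0 were higher than in parental in any of the 8 clones. SEMA4B, a semaphorin gene, was lower in 8G12 (-0.62) and 45G3 (-0.61), and CIB1, a calcium-binding protein gene, was lower in 2C11 (-0.39). Of the tests of all 12541 genes against parental, 12.2% were called higher and 11.5% lower. Against 16F8 the only call among these neighbours was CIB1, higher in 3A4 (0.49, adjusted p = 0.00988, limma).

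The IDH3 subunits varied less between clones than IDH1 and IDH2 on 7 of their 8 probe sets, with an SD of clone means on the log2 scale of 0.09 to 0.23, where IDH1 and IDH2 had 0.29 to 0.54; the eighth, IDH3G 214333_x_at, had 0.33 with an SD of 0.40 between replicates. IDH3A, the catalytic subunit, had signals of 753.5 to 989 on 202069_s_at, 617.3 to 856.1 on 202070_s_at and 37.9 to 68.5 on 231137_at. Its probe sets did not rank the clones alike, with correlations of clone means of -0.14 to 0.19 (9 clones). On 202070_s_at parental was lowest (696.6 and 617.3), and 3A4 and 47C2 were 0.31 ± 0.10 and 0.32 ± 0.10 above it on the log2 scale (adjusted p = 0.0290 and 0.0337, limma). Both calls were lost without the second parental array, without either array of the clone itself and with the variance prior untrended. They were lost under 4 and 5 of 27 alternatives, and the F test over all 9 clones had an adjusted p of 0.185 (limma). Neither of the other IDH3A probe sets gave a call in any comparison.

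IDH3B, the beta subunit, was lowest in parental on each of its 3 probe sets. By 201509_at the highest clone, 3A4, had 1123.9 and 1478.7, against 783.6 and 719.0 in parental. Both parental arrays were below all 16 others, while the arrays of 3A4 overlapped with those of 2H1, 8G12, 47C2 and 45G3. Relative to parental, 201509_at was higher in 2H1, 3A4, 8G12, 47C2, 45G3 and 16F8, by 0.48 ± 0.14 in 16F8 to 0.78 ± 0.14 in 3A4 (adjusted p = 0.0287 and 0.000571). 210418_s_at was higher in 5 of these clones (3A4, 8G12, 47C2, 45G3 and 16F8, by 0.32 to 0.48), and 210014_x_at in 3A4, 47C2 and 16F8 (0.35 to 0.38). Probe sets ending in _x_at can bind similar sequences of other genes, and those ending in _s_at can bind several transcripts. The 3 probe sets correlated at r = 0.709, 0.795 and 0.929 over the 9 clone means. Against 16F8, 0 of the 7 mutant clones differed on any IDH3A, IDH3B or IDH3G probe set, so IDH3B was called against the parental line alone, in 6 of the 8 targeted clones, 16F8 among them, and on 0 of its probe sets in 2C11 and 17H5. Without the second parental array all calls of 210418_s_at and 210014_x_at were lost, and on 201509_at those of 3A4 and 45G3 were kept. The call of 16F8 on 201509_at was lost under 8 of 28 alternatives, and that of 45G3 on 210418_s_at under 17 of 27, the replicate block among them.

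IDH3G, the gamma subunit, had signals of 364.8 to 527.1 on 202471_s_at and 22.6 to 73.6 on 214333_x_at, and its probe sets correlated at r = 0.069 (9 clones). The dimmer one split the replicates of the R140Q clones, with 54.4 and 24.0 in 8G12 and 22.6 and 53.0 in 17H5, while the 4 R172K arrays lay between 55.5 and 63.6. D2HGDH, which removes D-2-hydroxyglutarate, ran from 51.5 to 118.9. Its 2 highest clones were the R140Q clones, with 70.7 and 118.9 in 8G12 and 85.0 and 95.1 in 17H5, and its arrays overlapped between the mutant classes and the wild-type clones. ADHFE1 was dim throughout, from 9.2 to 22.4. IDH3G, D2HGDH and ADHFE1 gave 0 calls in any of the 21 comparisons (limma), and for ADHFE1 the SD of clone means was 0.518 times that of replicate arrays, so differences between clones were not detectable on this probe set.

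**Figure D3:**
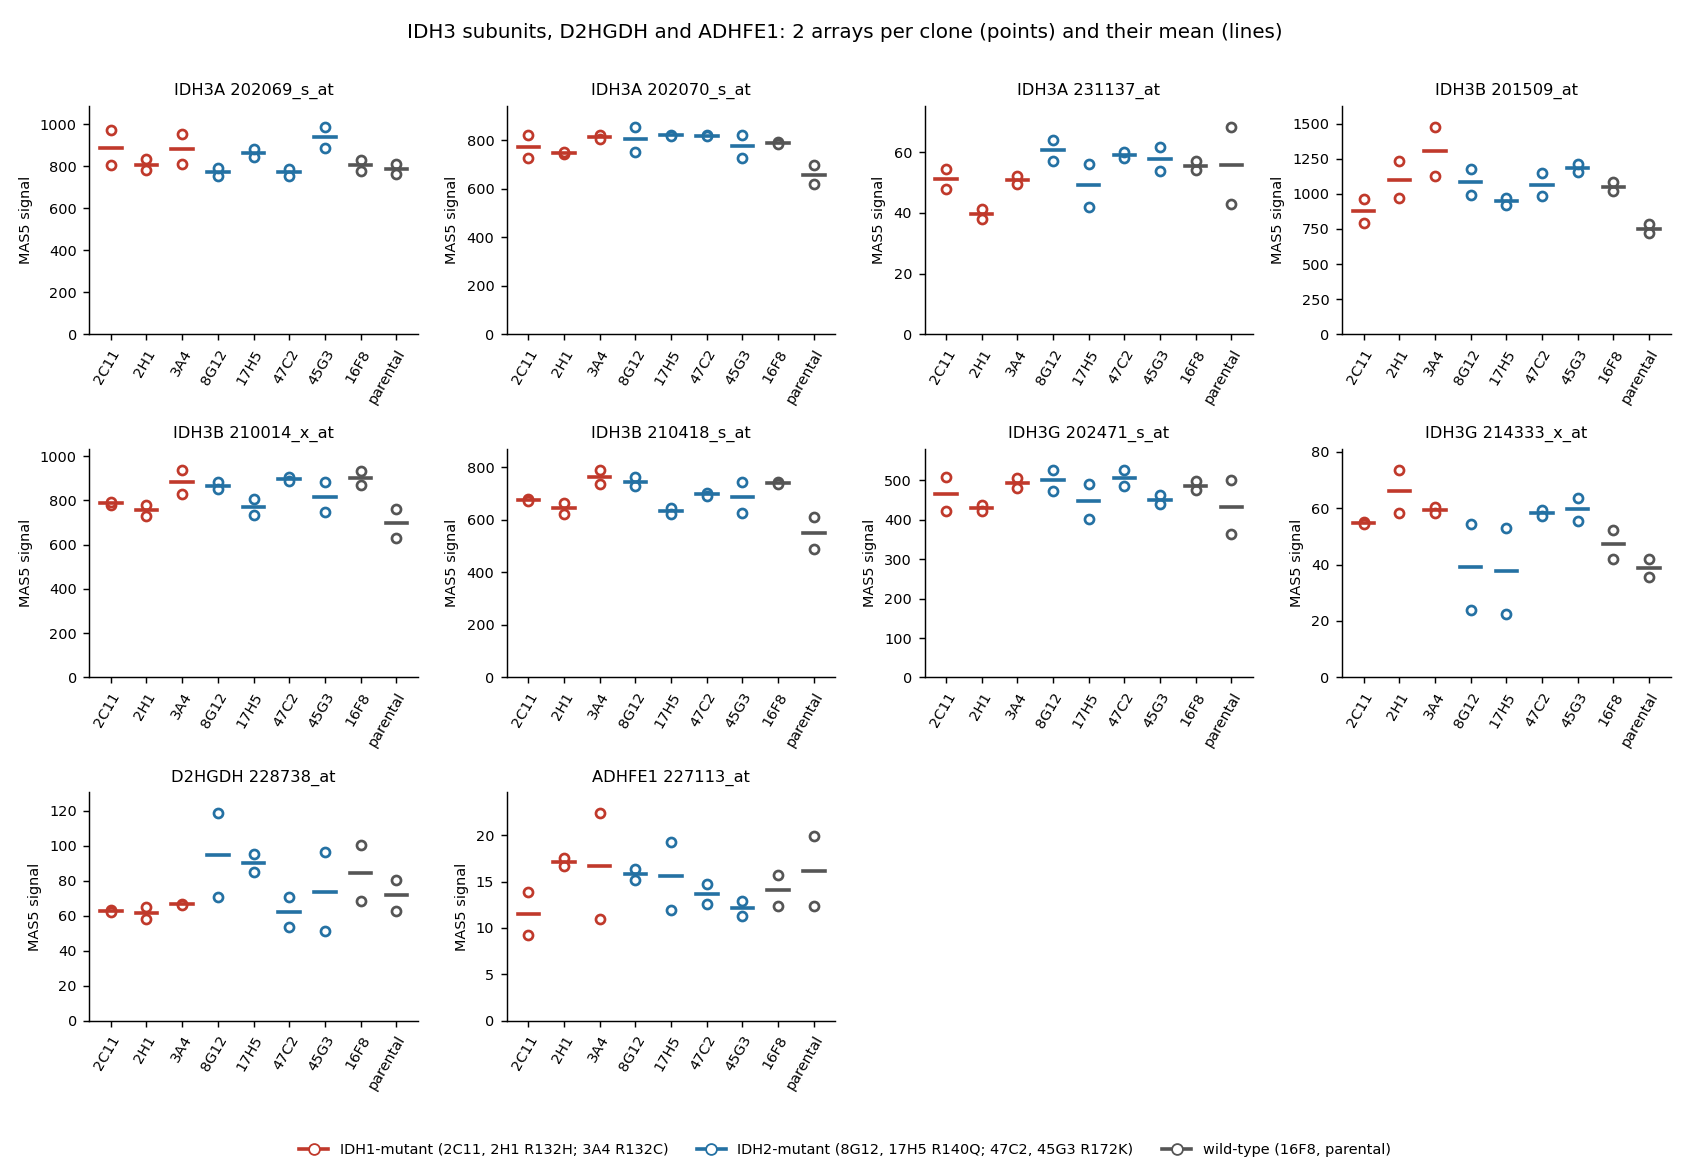
MAS5 signal of the 10 probe sets of IDH3A, IDH3B, IDH3G, D2HGDH and ADHFE1 in the 9 clones, with linear axes from 0 that differ between panels. Points are single arrays (2 per clone), lines are clone means, and colours give the mutated gene. Parental is lowest in the 3 IDH3B panels, while the points of ADHFE1 and of IDH3G 214333_x_at spread as widely within clones as between them.

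Over all 9 clones at once, 7 of the 15 probe sets differed (limma's moderated F test, adjusted p under 0.05), beside 42.8% of all probe sets tested. The 7 were all 3 of IDH1 (adjusted p = 0.000118 to 0.000469), both of IDH2 (0.000125 and 0.000752) and 201509_at and 210418_s_at of IDH3B (0.00813 and 0.0353). The share of the members was near that of the array as a whole, so variation between clones was not particular to these genes.

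Against parental, 2C11 gave 1 call among the 15 (20.5% of all probe sets), 2H1 gave 3 (25.9%), 3A4 gave 5 (31.5%), 8G12 gave 6 (13.4%), 17H5 gave 2 (8.38%), 47C2 gave 7 (21.9%), 45G3 gave 5 (23.9%) and 16F8 gave 7 (16.4%). Over the 8 clones that made 36 of 120 tests, or 30%, where all probe sets gave 20.2%, and the 8 comparisons share the 2 parental arrays. Without the second parental array the 36 calls fell to 15, and the calls over all probe sets fell to 30778, against 47020 with it. With the variance prior untrended 21 of the member tests were called. Against 16F8, 2C11 gave 3 calls among the 15 (1.41% of all probe sets), 2H1 gave 3 (12.3%), 3A4 gave 3 (21.7%), 8G12 gave 1 (0.433%), 17H5 gave 2 (5.77%), 47C2 gave 0 (4.38%, with 1 member at an unadjusted p under 0.05) and 45G3 gave 0 (1.53%, with 3 members). These were 12 of 105 tests, or 11.4%, where all probe sets gave 6.79%, and all 12 were IDH1 or IDH2 probe sets that were higher than in 16F8. Without the first 16F8 array 6 were called, and without the 4 arrays with the highest poly-A controls 7 were. The 7 comparisons share the 2 arrays of 16F8, the clone lowest in IDH1, and all calls of the 3 IDH1-mutant clones were of IDH1.

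**Figure D4:**
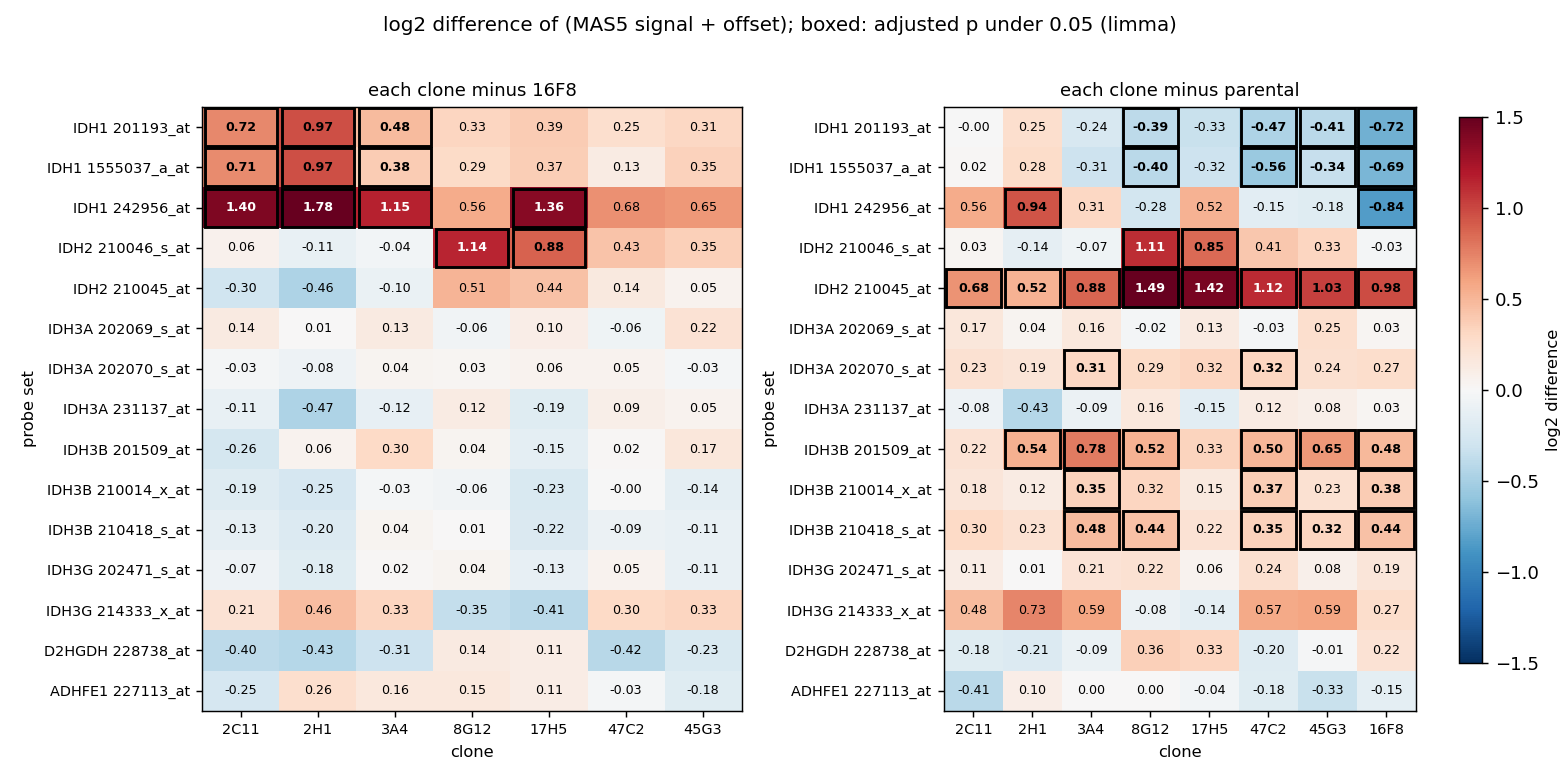
Differences in log2 of the signal plus 2.2 for the 15 probe sets (rows), of each mutant clone minus 16F8 (left) and of each clone minus parental (right). Colour and figures give the difference, and boxes mark an adjusted p under 0.05 in limma. The boxes against 16F8 are in IDH1 and IDH2 rows, and the row of IDH2 210045_at is boxed in all 8 clones against parental.

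With the clone as the replicate, 0 of the 15 probe sets passed in any of the 5 comparisons of genotypes. For all 7 mutant clones against the 2 wild-type clones limma called 0% of all probe sets, with 2116 at an unadjusted p under 0.05, 0 members among them. For IDH1-mutant against wild-type clones it called 0%, with 4387 at that unadjusted level and 1 member among them, IDH1 242956_at (1.02 ± 0.32, adjusted p = 0.219), which was 0.46 with an offset of 32. For IDH2-mutant against wild-type clones it called 0%, with 1462 at that level and 2 members among them, the IDH2 probe sets (0.69 ± 0.21 and 0.78 ± 0.25, adjusted p = 0.890 for both). Both estimates were above 0, and neither passed the adjustment over 29070.

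For IDH2-mutant against IDH1-mutant clones 0.00688% of all probe sets passed, 0 of them members, and 5 members were among the 3541 at an unadjusted p under 0.05. These 5 were the IDH2 and IDH1 probe sets, with estimates of opposite sign. For IDH2 the log2 difference was 0.73 ± 0.18 on 210046_s_at (adjusted p = 0.213) and 0.58 ± 0.22 on 210045_at (adjusted p = 0.343). For IDH1 it was -0.40 ± 0.15 on 201193_at, -0.40 ± 0.16 on 1555037_a_at and -0.63 ± 0.26 on 242956_at (adjusted p = 0.347, 0.362 and 0.374). Clone means of IDH2 210046_s_at were 158 to 274 in IDH2-mutant and 116 to 128 in IDH1-mutant clones. How many of all probe sets separate these classes was not counted.

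For R172K against R140Q clones limma called 0% of all probe sets, with 1932 at an unadjusted p under 0.05 and 3 members among them. IDH2 210046_s_at had a log2 difference of -0.62 ± 0.16 (adjusted p = 0.595), with means of 162 ± 5.44 and 250.2 ± 33.2 in R172K and R140Q clones (SD of 2 clones). For IDH3G 214333_x_at the difference was 0.69 ± 0.18 (adjusted p = 0.595) and for D2HGDH -0.45 ± 0.17 (adjusted p = 0.736). The IDH3G difference rests on the R140Q arrays that disagreed within their clones. Over the 9 clone means, D2HGDH and IDH2 210046_s_at correlated at r = 0.70, and IDH1 201193_at and IDH2 210046_s_at at r = -0.38, on shared arrays.

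For each gene, on its probe set of highest mean, the 2 most similar genes by the correlation of the 9 clone means among 12540 others were as follows. IDH1 was closest to TSGA10 (r = 0.939) and ABHD4 (0.937), and IDH2 to GSTM4 (0.954), a glutathione transferase gene, and COL21A1 (0.942). IDH3A was closest to PSMB8-AS1 (0.897) and RGS14 (0.895), and IDH3B to NSUN2 (0.963), an RNA methyltransferase gene, and FAAP100 (0.957). IDH3G was closest to COQ9 (0.969), a ubiquinone synthesis gene, and RUVBL2 (0.962). D2HGDH was closest to TTLL6 (0.971) and SH3PXD2A-AS1 (0.949), and ADHFE1 to NATD1 (0.957) and DUSP8 (0.931). These are the best of many genes over 9 points, and the members themselves were not among each other's closest. On the probe sets used for IDH3A, IDH3G, D2HGDH and ADHFE1, the clones did not differ (adjusted p = 0.254, 0.605, 0.350 and 0.821, limma's F test). The closest genes of these 4 therefore match clone means that were not separated from the spread of replicates. COL21A1 and TTLL6 were dim, with signals of 2.8 to 17.8 and 5 to 15.9, where array medians were 12.3 to 15.6.

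The enzymes and carriers around the isocitrate dehydrogenases were read on 1 probe set per gene. Of 7 mitochondrial carriers of citrate, 2-oxoglutarate and related acids, 3 or 4 were higher than in parental and 0 lower in each of the 8 clones, with list medians of 0.32 to 0.50 on the log2 scale where the median of all genes was -0.02 to 0.04. These were 28 of 56 tests (50%), where 12.2% of the tests of all 12541 genes were called higher. SLC25A10, the dicarboxylate carrier, was higher in all 8 clones (0.73 in 17H5 to 1.02 in 16F8), and SLC25A1, the citrate carrier, in the 7 clones other than 3A4 (0.39 in 2H1 to 0.95 in 8G12). Against 16F8, 0 carriers were higher in any mutant clone and SLC25A1 was lower in 2H1 and 3A4, so the carriers, like IDH3B, were called higher against the parental line alone. In the list of 2-hydroxyglutarate side reactions, 3 enzymes were measured. PHGDH, which starts serine synthesis and can reduce 2-oxoglutarate, was lower than in parental in all 8 clones (-0.89 in 17H5 to -2.15 in 3A4), where 11.5% of the tests of all genes were called lower. LDHA and LDHB gave 0 calls against parental, and differed by -0.25 ± 0.07 and -0.22 ± 0.06 in IDH2-mutant relative to IDH1-mutant clones (adjusted p = 0.219 and 0.244).

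Of 18 measured enzymes of the citrate cycle and 2-oxoglutarate metabolism, 0 to 3 were higher and 1 to 3 lower than in parental, depending on the clone. These were 15 higher and 11 lower calls in 144 tests (18.1%), where 23.7% of the tests of all genes were called in either direction. SDHA, a succinate dehydrogenase subunit, was higher in 7 clones (0.41 in 2C11 to 0.68 in 3A4), and GOT1, the cytosolic aspartate transaminase, was lower in all 8 (-0.31 in 3A4 to -1.13 in 2C11). ACO1, the cytosolic aconitase that makes isocitrate, was higher in 5 clones, by 0.32 in 47C2 and 45G3 to 0.64 in 2H1. OGDHL, related to 2-oxoglutarate dehydrogenase, had the smallest p of this list between the mutant classes, with a difference of 0.78 ± 0.17 (IDH2-mutant minus IDH1-mutant, adjusted p = 0.185), and was lower than in 16F8 in all 3 IDH1-mutant clones (-0.98 to -1.52). Of 8 measured genes of NADPH supply, the other product of IDH1 and IDH2, 1 or 2 were higher and 0 to 3 lower than in parental, 9 and 10 of 64 tests (29.7%). ALDH1L2, a mitochondrial folate enzyme, was lower than in parental in the 3 IDH1-mutant clones (-0.86 in 2H1 to -1.82 in 3A4). Its difference between IDH2-mutant and IDH1-mutant clones was 1.11 ± 0.30 (adjusted p = 0.227, limma). ALDH1L2 was dim, with mean signals of 7.3, 9.65 and 3.85 in 2C11, 2H1 and 3A4 and 19.05 in parental. Array medians were 12.3 to 15.6, so these differences depend on the offset of 2.2. In the comparisons of genotypes 0 members of the 4 lists passed (limma), with 6 of 90 tests of the citrate cycle list, 4 of 15 of the side reactions, 6 of 40 of NADPH supply and 0 of 35 of the carriers at an unadjusted p under 0.05, beside 9.98% of the tests of all genes.

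Most markers of other cells were below the filter. Of 6 fibroblast markers only COL1A1 passed it, with signals of 187 to 358.5 and a median of 238.65, and the summed signals were 198.4 to 296.1 in IDH1-mutant, 206.6 to 315 in IDH2-mutant and 242.3 to 372.8 in wild-type arrays, with COL1A2, COL3A1, DCN and LUM at medians of 1.30 to 2.85. Of 5 blood cell markers HBB and LYZ passed, and the summed signals were 69.4 to 155 in IDH1-mutant, 29.4 to 61.9 in IDH2-mutant and 23.2 to 32.9 in wild-type arrays. Most of the last difference was LYZ (55.1 to 142.1, 12.9 to 47.4 and 8.20 to 19.4 in the same order), while PTPRC, CD3E and CD14 had medians of 0.25 to 0.60. The class means of IDH1 242956_at had the same order (33.7, 21.3 and 15.95), but its clones overlapped between classes. Parental (21.15) lay above 8G12 (17.1), 47C2 (18.65) and 45G3 (18.15), and 17H5 (31.15) lay above 3A4 (26.85). Any relation of LYZ to IDH1 was not tested.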

How the data were processed

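The deposited values are probe set intensities on a linear scale, MAS5 signals per the submitters' processing notes. The MAS5 version is not given in the sources used. The authors' values had a trimmed mean of 150.01 to 150.02 in every array (2% of probe sets left out at each end), and array medians of 12.3 to 15.6. Arrays give no counts, and their number limits the precision. All arrays were used, and 0 columns lacked a sample.

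An offset of 2.2, which is the 25th percentile over all arrays, was added to each signal before log2, so changes of dim probe sets are understated. To be tested, a probe set had to reach its array's median in both replicates of some clone. Tests were two-sided linear models in limma 3.58.1 under R 4.3.3 (lmFit, eBayes with a trend), with Benjamini-Hochberg adjustment over 29070 probe sets and a threshold of 0.05, which is what "called" means; errors of log2 differences are standard errors. Clones were compared on 18 arrays with 9 residual degrees of freedom. Comparisons of genotypes used the means of the 9 clones, with 7 (mutant against wild-type), 6 (mutant classes) and 4 (alleles) degrees of freedom. The scripts were tested on simulated data. Plots used matplotlib 3.10.9 under Python 3.11.15.

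Gene names come from the platform's annotation table, where 41091 probe sets carry 1 symbol, 1801 several and 11721 none, and 62 are controls. Listed genes missing from the counts of measured genes were not analysed here. Genes named were all member probe sets, the 2 genes most like each member, the 3 nearest tested genes on each side of IDH1 and IDH2, up to 4 genes per list with the smallest p between the mutant classes, and list genes with calls singled out after their values were seen (SDHA, GOT1 and ACO1). The members, lists and tests were chosen with earlier results of these data known. Equal replicate numbers were no pairs: deviations from the clone mean correlated at -0.375 to 0.344 for the 36 pairings of clones, with 3 over 0.1. Spiked poly-A controls had a mean log2 signal of 7.03 to 7.28 in 4 arrays (8G12 2, 2C11 1, 16F8 1 and parental 1) and of 5.80 to 6.59 in the other 14, and alternatives left these arrays out.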

Additional observations from a re-analysis of the deposited data

Results flagged for a closer look

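Among the 4 IDH2-mutant clones, clone 17H5 stood apart on IDH1 242956_at, with a clone mean of 31.15 where the other 3 had 17.1 to 18.65. On the log2 scale the gap to the nearest clone was 0.845 of the whole range of the 4. It was 1 of 30 groups examined, and chance flags about 1 in 20. On the 2 brighter IDH1 probe sets 17H5 lay among the other IDH2-mutant clones.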

How the results depend on the processing

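Of 48 calls on member probe sets, 16 held under every alternative. Over their 1307 alternatives 1150 kept the call, 157 lost it and 0 turned the sign. The 25 uncalled results of IDH1 and IDH2 between genotypes stayed uncalled in all 930 alternatives, and 19 of these turned the sign. Precision is limited by 2 arrays per clone, 1 or 2 clones per allele and, for 242956_at, 214333_x_at and ADHFE1, low signal.

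The member calls over the 9 clones were 3 with 1 probe set per gene (6 to 8 with an array left out). Against parental they were 12 with 1 probe set per gene, 21 without the trend and 15 to 39 with an array left out. Against 16F8 they were 5 with 1 probe set per gene, 7 without the 4 arrays with the highest poly-A controls (chosen after seeing the data) and 6 to 14 with an array left out. With a replicate block they were 7, 34 and 12, so it moved none by over 1.5 times.

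Over all probe sets, the 12428 that differed among clones became 8132 with the stricter filter, 6562 with 1 probe set per gene and 9904 to 13177 with an array left out. Those against parental became 25588 with 1 probe set per gene and 30778 to 49025 with an array left out. Those against 16F8 (13817) became 7867 with 1 probe set per gene, 8791 without the arrays of high poly-A controls and 7795 to 15249 with an array left out. Calls between genotypes rose with a replicate block, and with clones as random blocks, to 4 and 4 for mutant, 670 and 754 for IDH1-mutant and 3 and 3 for IDH2-mutant against wild-type clones, 182 and 234 for IDH2-mutant against IDH1-mutant, and 96 and 122 for R172K against R140Q clones. With an array or clone left out they were 0 to 139, 0 to 346, 0 to 71, 0 to 68 and 0 to 5 in that order, with the 139, 346, 71 and 5 without 16F8 and the 68 without 2C11. With 1 probe set per gene, 1 passed for IDH1-mutant against wild-type. Between IDH2-mutant and IDH1-mutant clones 0 passed with no filter, with quantile normalization or without the trend, and 1 with 1 probe set per gene or without either set of arrays with high poly-A controls.

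The sign turned in these results, always short of the threshold. With an array or clone left out, the difference between mutant and wild-type clones ran from -0.23 to 0.45 for IDH1 1555037_a_at (-0.00806 without the arrays of high poly-A controls) and from -0.23 to 0.49 for IDH1 201193_at. Between IDH1-mutant and wild-type clones it ran from -0.00386 to 0.68 for IDH1 1555037_a_at, from -0.29 to 0.69 for IDH2 210045_at and from -0.19 to 0.10 for IDH2 210046_s_at, which was 0.11 and 0.0763 without the 3 or 4 arrays of high poly-A controls. Between IDH2-mutant and wild-type clones it ran from -0.40 to 0.28 for IDH1 1555037_a_at, from -0.40 to 0.32 for IDH1 201193_at (0.0141 with quantile normalization) and from -0.0227 to 0.81 for IDH1 242956_at. Between R172K and R140Q clones it ran from -0.20 to 0.0154 for IDH1 1555037_a_at and from -0.69 to 0.11 for IDH1 242956_at. The cause was not tested.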
